A study of Homo sapiens with 4 samples.

Results

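The polyamine synthesis and regulation genes examined here were ODC1, AMD1, SRM, SMS, SAT1, SMOX, OAZ1, OAZ2 and AZIN1. They were chosen by symbol, and all 9 were found among the 18840 genes of the expression table. Poly(A) RNA had been sequenced from MCF10A, an immortalised and non-tumorigenic human mammary epithelial line. Its cells stably carried a pBabe retroviral construct with miR-105, with MYC or with GFP, or pBabe without an insert (vector), and all were grown in serum, insulin, EGF, cholera toxin and hydrocortisone. There was 1 library per construct, so no difference has a replicate check, no test between conditions was possible, and the labels do not say whether a line was a pool or a clone.

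Polyamines (putrescine, spermidine and spermine) are small cationic metabolites that bind RNA and that dividing cells need for translation and growth. Ornithine decarboxylase makes putrescine, S-adenosylmethionine decarboxylase supplies the aminopropyl donor, and a pair of synthases add that group to give spermidine and then spermine. Acetylation and oxidation run the path backwards, while antizymes bind ornithine decarboxylase and send it to the proteasome, and antizyme inhibitor takes the antizymes away. ODC1 is a textbook transcriptional target of MYC.

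Reads totalled 6859698 in the library labelled miR-105, 9795159 in that labelled MYC, 14025115 in GFP and 9138429 in vector. Levels are given in depth-normalised counts (CPM, each library put on the same total), scaled by TMM factors between 0.9295 and 1.0768, so that 1 read was worth 0.0722 to 0.157 CPM. Bounds in parentheses are exact 95% limits, Poisson for a level and conditional binomial (Clopper-Pearson) for a ratio. They cover counting error only, and without molecular identifiers 2 reads may come from 1 molecule. MYC mRNA was highest in the library labelled miR-105, at 463 CPM, with 232 CPM in that labelled MYC, 198 CPM in GFP and 207 CPM in vector. With the MYC label it was only 1.17-fold (1.11 to 1.24) above GFP and 1.12-fold (1.05 to 1.19) above vector. Every direction below therefore belongs to a library with that label and not to a measured excess of its construct. Of 9 mammary epithelial markers 8 had a line in the table, and all 8 were detected in each library, at unequal levels. KRT17 had 766 CPM with the miR-105 label, 1777 with the MYC label, 5131 in GFP and 6927 in vector, KRT5 had 4654, 4138, 1614 and 1757, and TP63 had 6.12, 77.2, 14.4 and 7.14 in the same order.

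Promoter and target sequences are shown first because the miR-105 and MYC labels name regulators that act through short sequence matches. RefSeq promoter windows of 300 bases (250 before and 50 after a start site, GRCh38.p14) were found for 7 of the 9 genes, with 10 windows in all. SMOX and AZIN1 were not matched. The canonical E-box CACGTG, the MYC and MAX binding motif, which reads the same on both strands, stood in 7.26% of 35116 windows and in at least 1 window of 8.77% of 27305 genes. Among the polyamine genes it occurred in a window of ODC1 and in that of SRM, and in none of AMD1, SMS, SAT1, OAZ1 or OAZ2. The stretches that hold it are printed below from the coding strand, E-boxes in capitals.
ODC1, chr2:10447993-10448092, minus strand: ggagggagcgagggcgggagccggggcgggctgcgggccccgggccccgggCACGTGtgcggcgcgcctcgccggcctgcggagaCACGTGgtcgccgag
SRM, chr1:11060159-11060258, minus strand: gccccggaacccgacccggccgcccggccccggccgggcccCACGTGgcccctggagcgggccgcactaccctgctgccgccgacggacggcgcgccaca

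The ODC1 pair began at positions -29 and 6 counted from the downstream one of 2 RefSeq start sites, whose first base is chr2 position 10448012. In the main GENCODE v29 transcript both lie in intron 1, between exon 1 (chr2:10448121-10448504) and exon 2 (chr2:10445155-10445264). The SRM match began at position -199 from its start site. The cAMP response element TGACGTCA, searched on both strands and present in 1.85% of windows, was in none of the 10. The GC box GGGCGG, on either strand, was in 45% of all windows and in every polyamine gene window but that of SAT1. A match is a description of the letters and not of binding.

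The mature miR-105-5p of RefSeq (chrX:152392265-152392287, minus strand) is printed with its seed, bases 2 to 8, in capitals. Below it are the matches GCATTTG to that seed, on the sense strand only, in the 3′ UTRs of the main GENCODE v29 transcripts.
miR-105-5p: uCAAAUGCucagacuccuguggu
ODC1: ctgctgaacaaGCATTTGtagcttgtaca
OAZ2, first site: cttctctgtgtGCATTTGcgtctggcctg
OAZ2, second site: gtgttattctgGCATTTGgttaagctggc

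Of the 9 genes, ODC1 had 1 such match and OAZ2 had 2, and the other 7 genes had 0. Over all genes, 13.4% of 18893 had at least 1. The ODC1 match began at base 255 of a 3′ UTR of 756 bases, and those of OAZ2 at bases 530 and 596 of 1131. The microRNA itself was not analysed here.

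In the library labelled miR-105 all 4 synthesis genes were several-fold above both controls, SAT1 mRNA was 5.74 and 6.08 times lower than in GFP and vector, and the antizyme genes differed little. The library labelled MYC had the same direction at smaller size for ODC1, AMD1, SRM and SAT1, while SMS was slightly below both controls. A gene was counted as higher or lower when it was at least 1.5-fold away from the GFP library and from the vector library in the same direction, among the 12484 genes that averaged 1 CPM or more across all 4 libraries. All 9 genes passed that filter. In the library labelled miR-105, 6 of the 9 were higher, against 24.5% of all genes, and 1 was lower, against 25.6%. In the library labelled MYC 3 were higher, against 17.3% of all genes, and 1 was lower, against 18%. The median log2 fold over the controls, with 0.5 CPM added, was 0.94 for the 9 genes and 0.01 for all genes with the miR-105 label. For the library labelled MYC it was -0.15 for the 9 genes and 0.04 for all genes.

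**Figure D1:**
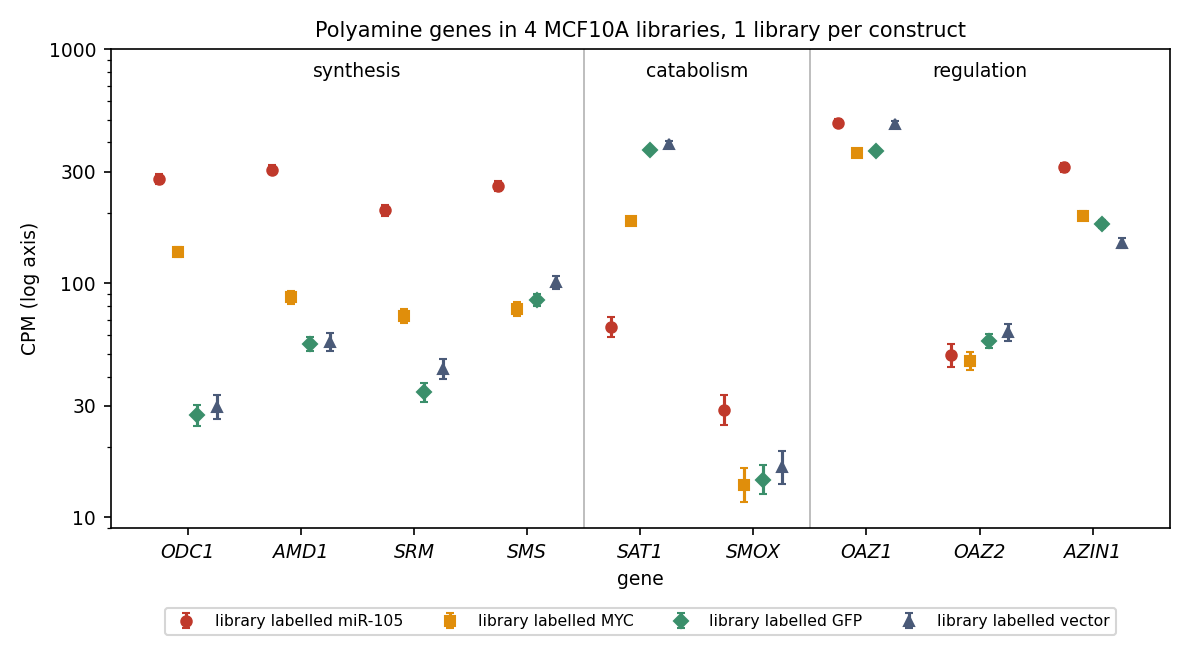
Level of each polyamine gene in CPM (log axis) in the 4 libraries, 1 point per library, with exact 95% Poisson bars for counting error. The red circles (miR-105) lie above every other library for the 4 synthesis genes and far below for SAT1, at 64.9 CPM against 373 in GFP and 394 in vector.

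ODC1 (GRCh38 chr2:10439968-10448504) encodes ornithine decarboxylase, the first and rate-limiting enzyme of the path. It stood at 278 CPM (266 to 292) in the library labelled miR-105, 136 (129 to 143) in that labelled MYC, 27.3 (24.6 to 30.2) in GFP and 29.7 (26.3 to 33.5) in vector. Both construct libraries were high, the 2 controls overlapped, and no interval of a construct library reached a control. The ratio with the miR-105 label was 10.2 (9.12 to 11.4) over GFP and 9.36 (8.24 to 10.7) over vector, a mean log2 fold of 3.27 that 227 of the 12484 genes exceeded. In the library labelled MYC the ratio was 4.97 (4.43 to 5.58) over GFP and 4.56 (4.01 to 5.21) over vector, a mean log2 fold of 2.23, which 388 genes exceeded. No other polyamine gene was 2-fold above both controls with the MYC label.

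AMD1 (chr6:110874770-110895713), for S-adenosylmethionine decarboxylase, had 305 CPM (292 to 319) with the miR-105 label, 87.4 (81.9 to 93.2) with the MYC label, 55.2 (51.3 to 59.2) in GFP and 56.2 (51.5 to 61.3) in vector. The controls differed by less than their counting error, and the library labelled MYC lay only a little above them. The ratio was 5.53 (5.08 to 6.02) over GFP and 5.43 (4.92 to 5.99) over vector with the miR-105 label, and 1.58 (1.44 to 1.75) and 1.55 (1.39 to 1.73) with the MYC label. The annotation holds the processed copies AMD1P1 to AMD1P4 and, for SRM, SRMP1 and SRMP2, so reads of either gene may be split with a copy.

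SRM (chr1:11054584-11060024) makes spermidine. Its level was 205 CPM (194 to 216) with the miR-105 label, 72.5 (67.5 to 77.9) with the MYC label, 34.2 (31.2 to 37.5) in GFP and 43.2 (39.1 to 47.7) in vector. Unlike ODC1 and AMD1, its 2 controls did not overlap. Ratios with the miR-105 label were 5.98 (5.38 to 6.66) over GFP and 4.74 (4.23 to 5.31) over vector, and those with the MYC label 2.12 (1.89 to 2.38) and 1.68 (1.48 to 1.9).

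SMS (chrX:21940573-21994835), whose enzyme converts spermidine to spermine, was the synthesis gene on which the construct libraries parted. It had 261 CPM (248 to 274) with the miR-105 label, 77.5 (72.2 to 83) with the MYC label, 84.9 (80.1 to 89.9) in GFP and 101 (94.9 to 108) in vector. The library labelled MYC was the lowest of the 4, though its interval overlapped that of GFP. The ratio was 3.07 (2.85 to 3.31) over GFP and 2.57 (2.37 to 2.79) over vector with the miR-105 label, and 0.913 (0.834 to 0.999) and 0.765 (0.695 to 0.841) with the MYC label.

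Summed over these 4 genes, synthesis mRNA came to 1049 CPM with the miR-105 label, 373 with the MYC label, 202 in GFP and 230 in vector. All 4 genes counted as higher with the miR-105 label, against 24.5% of all genes, with a median log2 fold of 2.42. With the MYC label 3 of the 4 did, against 17.3% of all genes, with a median of 0.78. SRM reads per 100 SMS reads, a ratio within each library that no scaling touches, were 78.6 (73 to 84.5) with the miR-105 label and 93.6 (84.7 to 103) with the MYC label. They were 40.3 (36.2 to 44.9) in GFP and 42.7 (37.9 to 48) in vector. The 2 controls agreed within counting error on this ratio, and both construct libraries lay far above them.

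SAT1 (chrX:23783173-23786226) encodes spermidine/spermine N1-acetyltransferase, the enzyme that marks polyamines for export or oxidation. It stood at 64.9 CPM (58.8 to 71.5) in the library labelled miR-105, 185 (177 to 193) in that labelled MYC, 373 (363 to 383) in GFP and 394 (382 to 407) in vector. The order was the reverse of that of ODC1 across the construct libraries and the controls as a pair. SAT1 was 5.74 times (5.2 to 6.36) lower than in GFP and 6.08 times (5.49 to 6.74) lower than in vector with the miR-105 label, a mean log2 fold of -2.55 below which lay 527 of the 12484 genes. With the MYC label it was 2.02 times (1.91 to 2.13) and 2.13 times (2.02 to 2.25) lower, a mean log2 fold of -1.05 below which lay 1504 genes.

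SMOX (chr20:4120980-4187747), for spermine oxidase, which turns spermine back into spermidine, had the fewest reads of the 9 genes in each library. Its level was 28.9 CPM (24.8 to 33.3) with the miR-105 label, 13.8 (11.7 to 16.3) with the MYC label, 14.5 (12.6 to 16.7) in GFP and 16.4 (13.9 to 19.3) in vector. The library labelled miR-105 stood apart at a ratio of 1.99 (1.62 to 2.44) over GFP and 1.76 (1.41 to 2.19) over vector, and the other 3 libraries overlapped. The ratios were 0.953 (0.765 to 1.19) and 0.842 (0.667 to 1.06) with the MYC label, so that a difference was not detectable at this depth. The pair of catabolic genes summed to 93.8 CPM with the miR-105 label, 199 with the MYC label, 387 in GFP and 411 in vector, nearly all of it SAT1 in the controls.

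**Figure D2:**
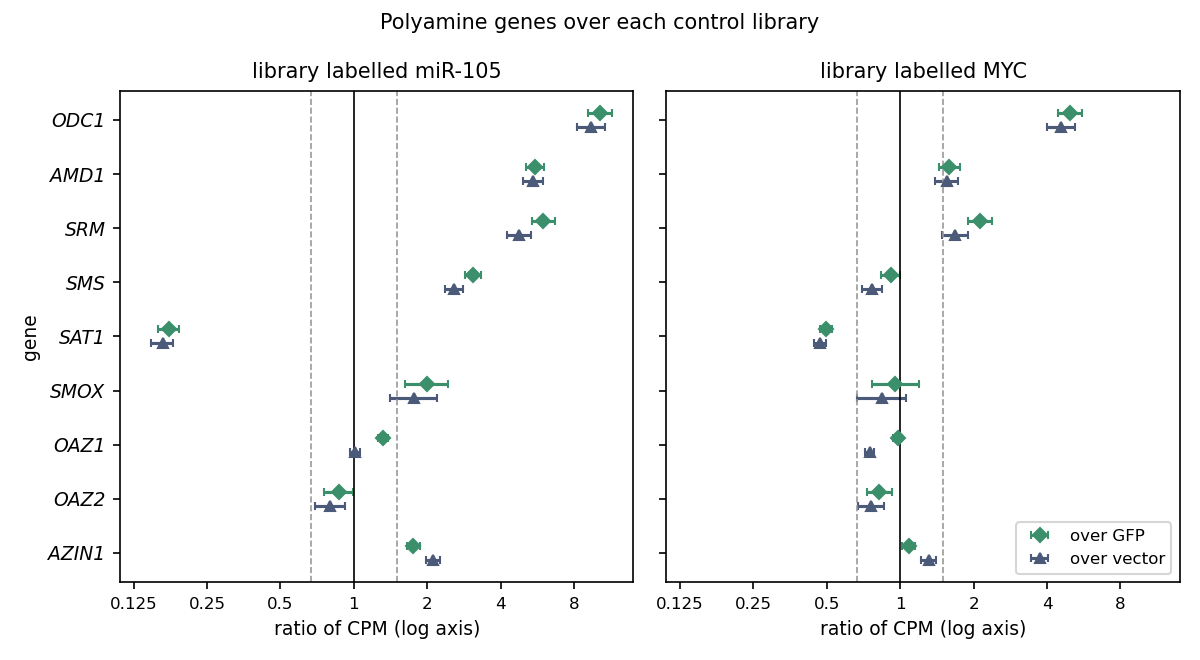
Ratio of CPM (log axis) of each gene in the library labelled miR-105 (left) and MYC (right) over GFP (green) and over vector (blue), with exact 95% bars for counting error and dashed lines at 1.5-fold. ODC1 lies at 10.2 and 9.36 on the left and at 4.97 and 4.56 on the right, SMS at 3.07 and 2.57 on the left and below 1 on the right, and SAT1 below 1 on both sides.

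OAZ1 and OAZ2 encode antizymes, which are made only when the ribosome shifts frame at a stop codon, a step that polyamines favour. The step is translational and read counts do not measure it. The site is printed for both genes, from GENCODE v29 transcripts that keep the stop codon, because these 2 genes share it almost letter for letter. The stop codon TGA of the first frame is in capitals.
OAZ1: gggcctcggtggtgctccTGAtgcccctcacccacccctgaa
OAZ2: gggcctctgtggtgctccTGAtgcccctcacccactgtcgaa

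Over the 42 bases 37 were identical. OAZ1 (chr19:2269509-2273490) had 486 CPM (469 to 503) with the miR-105 label, 360 (348 to 371) with the MYC label, 369 (359 to 379) in GFP and 480 (466 to 494) in vector. Its controls were further apart than the library labelled MYC was from GFP or the library labelled miR-105 from vector. The ratio was 1.32 (1.26 to 1.38) over GFP and 1.01 (0.967 to 1.06) over vector with the miR-105 label, and 0.975 (0.935 to 1.02) and 0.75 (0.718 to 0.783) with the MYC label. OAZ1 exons share 236 bases with JSRP1 on the opposite strand and 220 with AC005258.1 on the same strand, and the strand setting of the counting is not given in the sources used here.

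OAZ2 (chr15:64687573-64703281) was at 49.2 CPM (44 to 55) with the miR-105 label, 46.7 (42.7 to 51.1) with the MYC label, 56.8 (52.9 to 61) in GFP and 61.7 (56.8 to 67) in vector. Its ratios over GFP and vector were 0.866 (0.758 to 0.989) and 0.798 (0.693 to 0.917) with the miR-105 label, and 0.822 (0.733 to 0.921) and 0.757 (0.67 to 0.856) with the MYC label. Neither antizyme gene counted as higher or lower in either library. OAZ2 shares 554 exon bases with the antisense gene AC100830.3.

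AZIN1 (chr8:102826357-102893864) encodes antizyme inhibitor, an inactive relative of ornithine decarboxylase that binds antizyme in its place. It had 313 CPM (299 to 327) with the miR-105 label, 194 (186 to 203) with the MYC label, 179 (172 to 186) in GFP and 149 (141 to 157) in vector. All 4 intervals but those of the MYC and GFP libraries were well apart, and those 2 only just touched. Its ratio was 1.75 (1.65 to 1.86) over GFP and 2.11 (1.97 to 2.26) over vector with the miR-105 label, which counted as higher, and 1.09 (1.02 to 1.15) and 1.31 (1.22 to 1.4) with the MYC label, which did not. AZIN1 shares 344 exon bases with its antisense gene AZIN1-AS1.

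Ratios within a library set the enzyme beside its regulators and its opposite without any scaling between libraries. ODC1 reads per 100 OAZ1 reads were 57.3 (54 to 60.7) with the miR-105 label, 37.7 (35.5 to 40.1) with the MYC label, 7.4 (6.65 to 8.22) in GFP and 6.19 (5.46 to 7) in vector. ODC1 reads per 100 AZIN1 reads were 88.9, 69.8, 15.3 and 20 in the same order. For both pairs the construct libraries were several times above the controls, and closer to each other than to either control.

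ODC1 reads per 100 SAT1 reads were 429 (385 to 478) with the miR-105 label, 73.3 (68.5 to 78.6) with the MYC label, 7.32 (6.58 to 8.13) in GFP and 7.54 (6.64 to 8.52) in vector. This pair separated all construct libraries from each other and from the controls, and the controls from each other by less than counting error. SAT1 reads per 100 SMOX reads were 225, 1336, 2569 and 2401 in the same order of libraries, so that SAT1 outnumbered SMOX in each of the 4. These are read counts of genes of unequal length, and only their differences between libraries are compared.

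**Figure D3:**
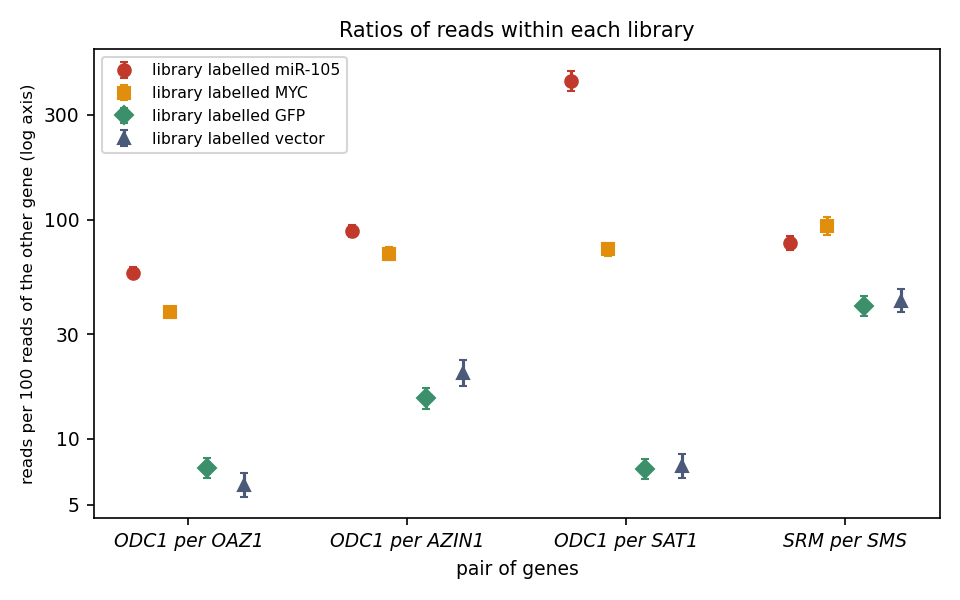
Reads of 1 gene per 100 reads of another in the same library (log axis), with exact 95% bars for counting error. For ODC1 per SAT1 the library labelled miR-105 is at 429, that labelled MYC at 73.3, GFP at 7.32 and vector at 7.54.

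Per kilobase of the main coding transcript, OAZ1 was the most abundant of the 9 in the library labelled miR-105 at 423 CPM per kb, followed by SRM at 162, SMS at 142, ODC1 at 105 and AMD1 at 88.7. AZIN1 at 66.3, SAT1 at 61, OAZ2 at 25.5 and SMOX at 12.9 came after the synthesis genes, with the counting errors of AZIN1 and SAT1 overlapping. With the sum over all annotated exons as length, AZIN1 at 48.7 came before the synthesis gene AMD1 at 43.4. By that length SMS at 121 also came before SRM at 108, and SMOX at 9.8 before OAZ2 at 6.42. The order with the MYC label was OAZ1 at 313, SAT1 at 174, SRM at 57.3 and ODC1 at 51.1 CPM per kb. SMS at 42.2, AZIN1 at 41.2, AMD1 at 25.4, OAZ2 at 24.2 and SMOX at 6.2 followed. Counting errors overlapped for SRM and ODC1, for SMS and AZIN1, and for AMD1 and OAZ2. With the all-exon length ODC1 at 45.7 came before SRM at 38.2. In both controls SAT1 and OAZ1 led by a wide margin. SAT1 had 350 and OAZ1 321 CPM per kb in GFP, and OAZ1 had 418 and SAT1 370 in vector, where the sum over all annotated exons as length turns the 2 round, to 158 for SAT1 and 140 for OAZ1. ODC1 was eighth in each control, at 10.3 CPM per kb in GFP and 11.2 in vector, and sixth in each with the all-exon length, at 9.2 and 10 CPM per kb.

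Between the 2 controls, GFP over vector, 0 of the 9 genes were past 1.5-fold in either direction. Over all genes 22.2% were, with 14% higher and 8.16% lower. The ratio closest to that threshold was that of OAZ1, 0.768 (0.738 to 0.8), followed by SRM at 0.792 (0.692 to 0.907), AZIN1 at 1.21 (1.13 to 1.29) and SMS at 0.838 (0.768 to 0.914). ODC1 at 0.918 (0.784 to 1.08) and AMD1 at 0.982 (0.877 to 1.1) did not differ beyond counting error. The spread between cultures of 1 construct cannot be estimated from these libraries.

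Set directly against the library labelled MYC, that labelled miR-105 had 6 of the 9 genes at least 1.5-fold higher and 1 lower, where 30.8% of all genes were higher, 30.1% lower and 60.9% either. AMD1 had the highest of these ratios at 3.49 (3.23 to 3.78), followed by SMS at 3.37 (3.09 to 3.66), SRM at 2.82 (2.58 to 3.09), SMOX at 2.08 (1.67 to 2.61), ODC1 at 2.05 (1.91 to 2.2) and AZIN1 at 1.61 (1.51 to 1.71). SAT1 was 2.85 times (2.56 to 3.17) lower. OAZ1 at 1.35 (1.29 to 1.42) and OAZ2 at 1.05 (0.912 to 1.22) were within 1.5-fold. These ratios share no control library, unlike the folds above, which use the same GFP and vector libraries for both labels.

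The size of the threshold and the tool mattered more for the MYC label. At 2-fold, 4 of the 9 genes were higher with the miR-105 label, all of them synthesis genes, against 15.2% of all genes, and SAT1 was lower, against 18%. In the library labelled MYC, ODC1 alone was 2-fold higher and SAT1 alone 2-fold lower, against 9.59% and 11.3% of all genes. A count model that took GFP and vector as replicates of 1 control group leaves 1 residual degree of freedom and compares these libraries, not the conditions. In it edgeR's quasi-likelihood test (Benjamini-Hochberg adjusted p under 0.05) called 5 of the 9 higher and 1 lower with the miR-105 label, against 19.8% and 19.3% of all genes, with adjusted p of 9.32e-12 for ODC1 and 6.45e-06 for SAT1. With the MYC label it called ODC1 higher (adjusted p 7.82e-07) and no gene lower, against 10.9% and 11.4%. DESeq2 called 4 higher and 1 lower with the miR-105 label, against 12.9% and 14%, and 1 higher and 1 lower with the MYC label, against 5.63% and 8.43%.

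The genes whose pattern over the 4 libraries was most like that of ODC1, by Euclidean distance of log2(CPM + 0.5) centred on each gene's mean, were TENM4 (0.14), ERVMER34-1 (0.35), PSAT1 (0.36), SCD (0.41) and S100A2 (0.43). TENM4 had only 0.795 CPM in GFP and 0.865 in vector, close to the 0.5 CPM added, so its distance depends on that addition. PSAT1, an enzyme of serine synthesis, had 132 CPM with the miR-105 label, 71.7 with the MYC label, 15.7 in GFP and 12.1 in vector. Of the other polyamine genes SRM ranked 150 of 12483 in this likeness and AMD1 239, followed by AZIN1 at 2019 and SMS at 2072. SAT1 ranked 11727. With 4 points per gene this is a description only.

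A further 38 genes of polyamine supply, turnover, use and transport were listed by role. Of these, 35 had a line in the table and 29 passed the filter, while PAOX, AZIN2 and SLC3A2 were not analysed here. In the library labelled miR-105, 15 of the 29 were higher, where 24.5% of all genes were, and 5 lower, where 25.6% were, and the median log2 fold was 0.77. In that labelled MYC 7 were higher, where 17.3% of all genes were, and 6 lower, where 18% were, and the median was 0.29. The counts with the MYC label lie near those shares. The medians of all genes were 0.01 and 0.04. Between the controls, GFP over vector, 2 of the 29 were past 1.5-fold higher and 2 lower, where 14% and 8.16% of all genes were. The higher ones were SLC7A1 at 2.06 and ATP13A3 at 1.75, and the lower ones SAT2 at 0.625 and ASS1 at 0.653.

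Hypusine formation uses spermidine to modify eIF5A, a translation factor. EIF5A mRNA stood at 1121 CPM with the miR-105 label, 310 with the MYC label, 219 in GFP and 288 in vector. It was thus 5.12-fold (4.9 to 5.34) above GFP and 3.9-fold (3.73 to 4.07) above vector with the miR-105 label. Its relative EIF5A2 was 5.21-fold and 6.22-fold higher there, and DOHH, which completes hypusine, 2.51-fold and 2.42-fold, whereas DHPS, which starts it, was 1.68 and 2.03 times lower. None of the 4 hypusine genes counted as higher or lower with the MYC label.

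Of the 6 ornithine and arginine supply genes that passed the filter, ARG2 and OAT had the same level under both labels, 18 and 110 CPM, and neither counted as higher or lower. AGMAT, an agmatinase-like enzyme of arginine metabolism, had 118 reads with the miR-105 label, 1 with the MYC label, 12 in GFP and 6 in vector. It passed the filter only through the library labelled miR-105 (18.5 CPM), so its place in either count rests on that. The ratio with the miR-105 label was 21.4 (11.8 to 42.5) over GFP and 28.5 (12.7 to 79.3) over vector, and with the MYC label 0.109 (0.00256 to 0.739) and 0.146 (0.00318 to 1.2). ASS1, which makes argininosuccinate, was 2.98 and 4.56 times lower with the miR-105 label, and ASL, which splits it into arginine, was 2.05-fold and 1.66-fold higher. ASL was 2.24 and 2.77 times lower with the MYC label. ALDH18A1, of proline and ornithine synthesis, was higher under both labels, 2.27-fold and 2.62-fold with miR-105 and 1.98-fold and 2.28-fold with MYC.

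For the methionine branch, AHCY, which hydrolyses S-adenosylhomocysteine, was 2.06-fold and 1.67-fold above GFP and vector with the miR-105 label and 2.96-fold and 2.4-fold with the MYC label. MAT2A, which makes S-adenosylmethionine, was 1.6-fold and 1.83-fold higher with the miR-105 label and did not count as higher with the MYC label. Methylthioadenosine, the by-product of both synthases, is salvaged to methionine by a chain that begins with MTAP. MTAP had 0 reads in all 4 libraries, as had CDKN2A and CDKN2B, its neighbours at 9p21, a region that MCF10A is known to lack. By the floor of 3 reads used here for counts of 0, which lies below the 95% Poisson limit, up to 0.471 CPM with the miR-105 label, 0.284 with the MYC label, 0.217 in GFP and 0.324 in vector would go unseen. Further down the chain, APIP was 3.29-fold and 2.78-fold higher with the miR-105 label and 4.62-fold and 3.89-fold with the MYC label. ENOPH1 was 2.97-fold and 3.1-fold higher with the miR-105 label, and MRI1 1.64-fold and 1.73-fold higher with the MYC label.

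Among other catabolic and regulatory genes, SAT2, a relative of SAT1, was 1.98 and 3.17 times lower than GFP and vector with the miR-105 label. OAZ3, an antizyme known from testis, had 11.3 CPM with the miR-105 label, 11.6 with the MYC label, 5.2 in GFP and 7.57 in vector. It counted as higher with the MYC label only, at 2.22-fold and 1.53-fold, although the 2 construct libraries had nearly the same level.

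Transport genes held the widest differences of the list. SLC7A2, a cationic amino acid carrier that takes up arginine and ornithine, had 10 CPM with the miR-105 label, 784 with the MYC label, 16.4 in GFP and 19 in vector. With the MYC label it was 47.8-fold (41.9 to 54.8) above GFP and 41.2-fold (35.5 to 48.1) above vector, and with the miR-105 label 1.63 and 1.9 times lower. ATP13A4, of the ATPase family that exports polyamines from endosomes and lysosomes, had 4.39 CPM with the miR-105 label, 0.19 (2 reads) with the MYC label, 84.9 in GFP and 92.5 in vector. Its relative ATP13A3 was 1.9-fold and 3.33-fold higher with the miR-105 label, and ATP13A2 was 2.25 and 1.6 times lower with the MYC label.

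The vesicular polyamine carrier SLC18B1 was higher under both labels, 2.21-fold and 2.19-fold over GFP and vector with miR-105 and 4.05-fold and 4.01-fold with MYC. CAV1 and GPC1, for the caveolar protein and the glypican linked to polyamine uptake, were both higher with miR-105 and both lower with MYC. CAV1 was 2.4-fold and 1.97-fold higher with the miR-105 label and 3.09 and 3.76 times lower with the MYC label. GPC1 was 1.62-fold and 1.51-fold higher with the miR-105 label and 2.64 and 2.84 times lower with the MYC label. SLC12A8, a cation-chloride cotransporter relative, was 1.87-fold and 1.71-fold higher with the miR-105 label. Some listed genes below the filter had most of their reads with the MYC label. The carrier SLC47A1 had 0 reads with the miR-105 label, 35 with the MYC label, 0 in GFP and 3 in vector. MAT1A, the liver form of the S-adenosylmethionine synthase, had 1, 11, 2 and 2. SLC22A3 had 0, 2, 0 and 0, too few to compare.

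**Figure D4:**
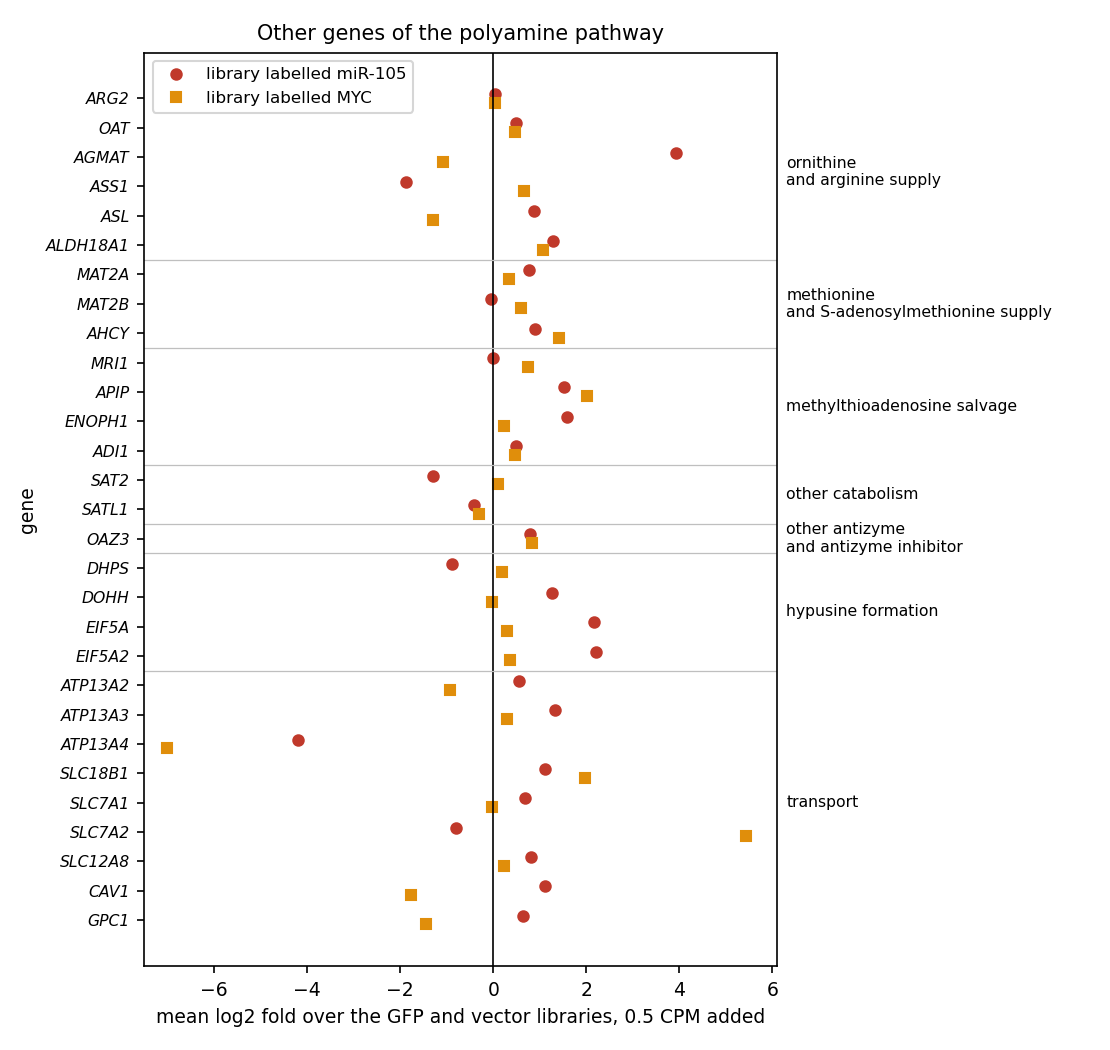
Mean log2 fold over the GFP and vector libraries (0.5 CPM added) of the 29 other polyamine pathway genes that passed the filter, grouped by role, red circles for the library labelled miR-105 and orange squares for that labelled MYC. EIF5A and EIF5A2 lie above 2 for miR-105 alone, and SLC7A2 and ATP13A4 lie at opposite ends for MYC.

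Other measures moved with these values, and their part in the polyamine results was not tested. Of the 9 proliferation genes listed, 8 had a line. All 8 were higher with the miR-105 label, against 24.5% of all genes (median log2 fold 5.28). With the MYC label 3 of the 8 were higher, against 17.3% of all genes (median 0.48). MKI67 had 1169 CPM with the miR-105 label, 36.3 with the MYC label, 14.9 in GFP and 11.4 in vector. MXI1, for a MYC antagonist, had 14, 79.2, 88.9 and 81.2 CPM in the same order. MAX had 54.4, 72.4, 77.6 and 91.7 CPM and counted as neither higher nor lower under either label. Markers of other cells summed to 118, 161, 211 and 216 CPM for 8 fibroblast genes, with COL3A1 at 0 reads throughout, to 24.2, 19.2, 85.5 and 76.3 CPM for 5 immune genes, and to 3.61, 92.1, 49.6 and 46.6 CPM for 4 endothelial genes. The endothelial sum was mostly KDR, at 1.73, 88.9, 33 and 32.6 CPM, while PECAM1 had 1.73, 2.46, 15.9 and 12.8 CPM. In bulk RNA, fewer cells of a kind and less RNA per cell cannot be told apart.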

How the data were processed

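The study had sequenced poly(A) RNA of 4 MCF10A lines, 1 library each. TopHat2, edgeR and hg19 are named in the submitters' processing notes, without versions. Which counter, annotation and strand setting were used is not stated in the submitters' processing notes. The authors deposited a normalised signal per gene and library, where the design had assumed raw counts. Its values behaved as edgeR pseudo-counts, and inverting that adjustment (common dispersion 0.0553, GFP and vector as 1 group) gave whole reads for 100% of 18859 lines in each library, within a relative tolerance of 1e-05. On counts drawn to test the inversion it returned 100% of reads exactly. After dropping 19 repeated lines, 18840 genes were left.

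CPM used the recovered totals and TMM factors. Genes that averaged 1 CPM or more were compared by a 1.5-fold rule against both controls, with exact 95% intervals, 0.5 CPM added for log2 folds, and a floor of 3 reads. No test was the main result, and the labels give no separate cultures. Alternatives were library totals alone, DESeq2 size factors, other filters, 2-fold, each control alone, other pseudocounts, and edgeR or DESeq2 with both controls as 1 group. All-exon lengths and the values as deposited were added after the data had been seen. Members, lists, thresholds and alternatives were chosen with earlier results of these data known. The text names all members, every listed pathway gene that passed the filter and was past 1.5-fold in either library, those at 0 reads in all libraries, and the 5 genes nearest to ODC1. Single marker genes, ARG2, OAT, SLC7A1, SLC47A1, MAT1A and SLC22A3 were named after their values were seen. Gene positions and lengths are from GENCODE v29 (GRCh38) and were matched by symbol, while the files used hg19. Tools were R 4.3.3, edgeR 4.0.16, DESeq2 1.42.0, Python 3.11.15, scipy 1.17.1 and pandas 2.3.3.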

Additional observations from a re-analysis of the deposited data

Results flagged for a closer look

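SMS stood out because the libraries labelled miR-105 and MYC lay on opposite sides of both controls. It had 261 CPM with the miR-105 label, 77.5 with the MYC label, 84.9 in GFP and 101 in vector, and the ratio of the library labelled miR-105 to that labelled MYC was 3.37 (3.09 to 3.66). With the MYC label the ratio was 0.913 (0.834 to 0.999) over GFP and 0.765 (0.695 to 0.841) over vector, and SMS did not count as lower. The gap to GFP was smaller than that between the controls, where GFP over vector was 0.838 (0.768 to 0.914). With 1 library per construct the difference between the labels was not tested. The mean log2 fold with the MYC label, -0.26, was -0.15 when library totals alone set the scale and -0.13 against GFP alone, while that with the miR-105 label, 1.49, was 1.38 and 1.61.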

How the results depend on the processing

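No paired analysis was possible because each construct had 1 library. Counts of the 9 polyamine genes with the miR-105 label stayed within 1.5 times under every alternative run. With the MYC label the 3 higher genes became 1 at 2-fold, 1 with edgeR and 1 with DESeq2, and the 1 lower gene, SAT1, became 0 with edgeR (adjusted p 0.0674). At unadjusted p under 0.05 edgeR had 1 lower, and DESeq2 called 1 lower (adjusted p 0.0339 for SAT1). Of the other pathway genes, the 15 higher with the miR-105 label became 8 at 2-fold and 8 with DESeq2, and the 5 lower became 2 at 2-fold, 3 with edgeR and 3 with DESeq2. The 7 higher with the MYC label became 4 at 2-fold. The 2-fold rule asks for a larger difference by construction. For the edgeR and DESeq2 counts the cause was not tested. The other 72 counts under an alternative stayed within 1.5 times. For single genes, 102 mean log2 folds moved by less than their counting error and 24 by more, and none changed sign. With all-exon lengths, 2 members moved by more than 1 place in the order per length in GFP and 3 in vector. Library totals alone put the median log2 fold of all genes at -0.09 with the miR-105 label, against 0.01 with TMM, and at 0.14 with the MYC label, against 0.04. The library labelled miR-105 was the shallowest, so a given CPM rests on the fewest reads there. SMOX, the member with the fewest reads, had 184 there, 146 with the MYC label, 201 in GFP and 152 in vector.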
